A study of Homo sapiens with 52 samples.

Results

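Over 10 days in retinoic acid, human embryonic stem cells of the H1 line lost messenger RNA of many genes of mitosis, the stage of the cell cycle in which duplicated chromosomes are pulled apart into daughter cells. The 35 genes described here were taken as a list of symbols, chosen with earlier results of these data known. Their counts beside the shares of all genes therefore describe this list and are no independent test. Every probe set annotated to one of these symbols alone was used from both arrays. This gave 64 probe sets of the 34491 annotated to a single gene, and all 35 genes were among the 12201 genes tested, 32 by a probe set of the first array and 3 (ANLN, NUF2 and KIF23) by one of the second. By a slope over days 0 to 10, 25 of the 35 fell, against 21.4% of all genes, and none rose. On day 10 the mean of both samples lay below the untreated level for all 35, where the median difference of all genes was 0.00. Of these, 19 were past the test, against 12.5% of all genes. That number rested in large part on the second day 10 sample. Without it KIF23, NDC80, TOP2A, CENPE and PRC1 lay above their untreated level, by 0.15 to 0.225 on the log2 scale. Calls against day 0 that held on every later day came mostly late, from day 9 for 6 members and from day 10 for 11. Day 10 was the last day, so a call on it counted as lasting by definition. The decline was uneven: CDK1 was down from day 4 onwards, with its day 4 call at the threshold and lost under several settings. BUB1 stood above its untreated level until day 3, short of the test, and TOP2A, PRC1 and ZWINT had no slope past the test.

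The cells were the human embryonic stem cell lines H1, H9 and HUES8, all cultured in mTeSR medium on plates coated with Matrigel. H1 was sampled untreated on day 0 and then on each of days 1 to 10 in 5 µM retinoic acid, while H9 and HUES8 were sampled once, undifferentiated and without retinoic acid. Each of the 13 groups had 2 samples that the labels call biological replicates, and each of the 26 RNA samples was hybridised to both Affymetrix human chips of the U133 pair, A and B, 52 arrays in all. Every treated sample was H1 and no untreated H1 sample of days 1 to 10 was analysed here, so the effect of retinoic acid and that of time in culture cannot be told apart.

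Mitosis is started by the kinase CDK1 once it is bound to cyclins A and B, and polo and Aurora kinases then build the spindle and attach the chromosomes to it. The spindle checkpoint holds the cell until every chromosome is attached, after which the anaphase-promoting complex degrades cyclin B and securin and the cell divides. Many of these genes are transcribed late in the cell cycle through a pair of promoter elements, the CCAAT box bound by NF-Y and the cell cycle genes homology region, of sequence TTTGAA or TTTAAA, read by the MuvB complex with B-MYB and FOXM1 in cycling cells and by the DREAM complex in resting cells. Pluripotent stem cells divide rapidly with a short first gap phase, and differentiation is known to lengthen their cycle.

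The promoters of 8 members are shown because these genes carry the main results: BUB1, PLK1, CDC20, CCNB1, CCNB2 and NUSAP1 fell over the course, and TOP2A and KIF23 had no slope past the test. All 8 hold a CCAAT box, while BUB1, which fell, and TOP2A, which had no slope past the test, lack TTTGAA and TTTAAA in the bases shown. Each line gives the 120 bases upstream of the gene's RefSeq start in GRCh38.p14, on the strand of the gene from 5′ to 3′. Capitals mark the CCAAT box and both forms of the homology region, TTTGAA or TTTAAA, on either strand. A marked ATTGG is therefore a CCAAT box of the other strand. TTTAAA reads the same on both strands, and no marked motif overlaps another in these sequences.
BUB1, chr2:110678064-110678183, minus strand: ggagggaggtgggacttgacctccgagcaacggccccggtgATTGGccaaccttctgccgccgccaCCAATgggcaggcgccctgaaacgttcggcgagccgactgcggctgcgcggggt
PLK1, chr16:23678769-23678888, plus strand: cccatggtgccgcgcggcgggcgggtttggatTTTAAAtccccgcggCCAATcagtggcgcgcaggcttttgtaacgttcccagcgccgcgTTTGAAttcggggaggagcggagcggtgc
CDC20, chr1:43358861-43358980, plus strand: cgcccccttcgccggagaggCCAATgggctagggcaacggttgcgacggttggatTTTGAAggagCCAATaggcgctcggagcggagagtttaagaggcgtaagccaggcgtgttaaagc
CCNB1, chr5:69167030-69167149, plus strand: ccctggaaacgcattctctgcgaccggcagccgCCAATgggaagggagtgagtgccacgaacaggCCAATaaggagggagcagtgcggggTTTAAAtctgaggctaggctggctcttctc
CCNB2, chr15:59105026-59105145, plus strand: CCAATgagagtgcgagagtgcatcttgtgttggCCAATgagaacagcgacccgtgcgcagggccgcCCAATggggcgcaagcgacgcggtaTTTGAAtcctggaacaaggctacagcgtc
NUSAP1, chr15:41332761-41332880, plus strand: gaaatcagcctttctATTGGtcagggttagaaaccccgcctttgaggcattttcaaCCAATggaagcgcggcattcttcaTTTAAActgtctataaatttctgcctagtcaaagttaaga
TOP2A, chr17:40417897-40418016, minus strand: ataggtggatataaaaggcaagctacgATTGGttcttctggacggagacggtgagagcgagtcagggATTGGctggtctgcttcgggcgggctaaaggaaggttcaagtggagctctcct
KIF23, chr15:69414229-69414348, plus strand: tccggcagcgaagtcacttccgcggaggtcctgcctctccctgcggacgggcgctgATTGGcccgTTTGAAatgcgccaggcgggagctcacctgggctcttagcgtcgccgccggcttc

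Of the 35 members, 29 matched a promoter in the RefSeq table. The unmatched members were AURKA, TTK, UBE2C, TPX2, BIRC5 and FOXM1. TTTGAA or TTTAAA occurred within 120 bases upstream of the start in 19 of the 29 matched members (65.5%), against 12.1% of the 27305 genes in the table. CCAAT occurred in 19 of 29 (65.5%), against 24.3% of all genes, and both kinds of element occurred in 15 of 29 (51.7%), against 2.7% of all genes. In the sequences above the TTTGAA or TTTAAA nearest to the start, CCAAT boxes aside, lay 29 bases upstream in PLK1 and CCNB2, 30 in CCNB1, 40 in NUSAP1, 55 in KIF23 and 65 in CDC20. BUB1 and TOP2A hold CCAAT boxes and no TTTGAA or TTTAAA in this window. TTTGAA or TTTAAA was present in 13 of the 20 matched members with a falling slope and in 6 of the 9 without one. These are matches of letters and carry no information on what was bound there.

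Signals are MAS5 intensities, a linear measure of probe brightness scaled so that each array had a trimmed mean near 500.2. A probe set was present where its detection p-value was below 0.05, and 33 of the 35 members were present in all 26 samples. PLK1 was present in 25 samples and missed that threshold in the second day 10 sample, with a detection value of 0.0676. CENPE, a centromere-bound kinesin, was present in 18. Of 10 stem cell markers, 9 were present in both H1 day 0 samples and in both HUES8 samples, and all 10 in both H9 samples. Their summed signal was 125980 to 132422 in H1 on day 0 and 19101 to 21987 on day 10, when all 10 had fallen. Simple epithelial markers rose meanwhile from a summed 17949 to 18133 on day 0 to 76393 to 76648 on day 10, with all 8 past the test. Fibroblast and matrix markers went from 4986 to 6405 on day 0 to 27192 to 38128 on day 10 (4 of 8 higher, and 8 of 8 by slope) and endoderm markers from 497 to 544 to 2779 to 4472 (3 of 6 higher). Neuron markers went from 21998 to 24743 on day 0 to 4044 to 4182 (5 of 9 lower) and neural progenitor markers from 2051 to 2092 to 757 to 986 (2 of 4 lower). In such bulk RNA, fewer dividing cells and less of these transcripts per cell cannot be told apart, and the part of a changing cell type makeup in the results below was not tested.

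The course is described by 3 measures, all from limma on log2 signal with 2 samples per group and p-values adjusted by Benjamini-Hochberg over the 12201 genes. An F test asks whether a gene varied among the 11 H1 days, a slope gives the change in log2 per day over days 0 to 10, and days 7 to 10 were set against days 1 to 3. The F test called 17 of 35 members (48.6%), against 27% of all genes, and 10 without the second day 10 sample or 11 without either day 0 sample. The slope was lower in 25 of 35 members, against a background of 21.4% of all genes, and higher in 0, against 23.3%. The median slope was -0.06 over the members and 0.00 over all genes. Days 7 to 10 were lower than days 1 to 3 in 21 members, against 19.1% of all genes, and higher in 0, against 21.3%, with a median of -0.35 over the members and 0.01 over all genes. With arrays centred on control probe sets the last comparison had 16 members lower and 1 higher, PRC1, against 13.3% and 26.1% of all genes.

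**Figure D1:**
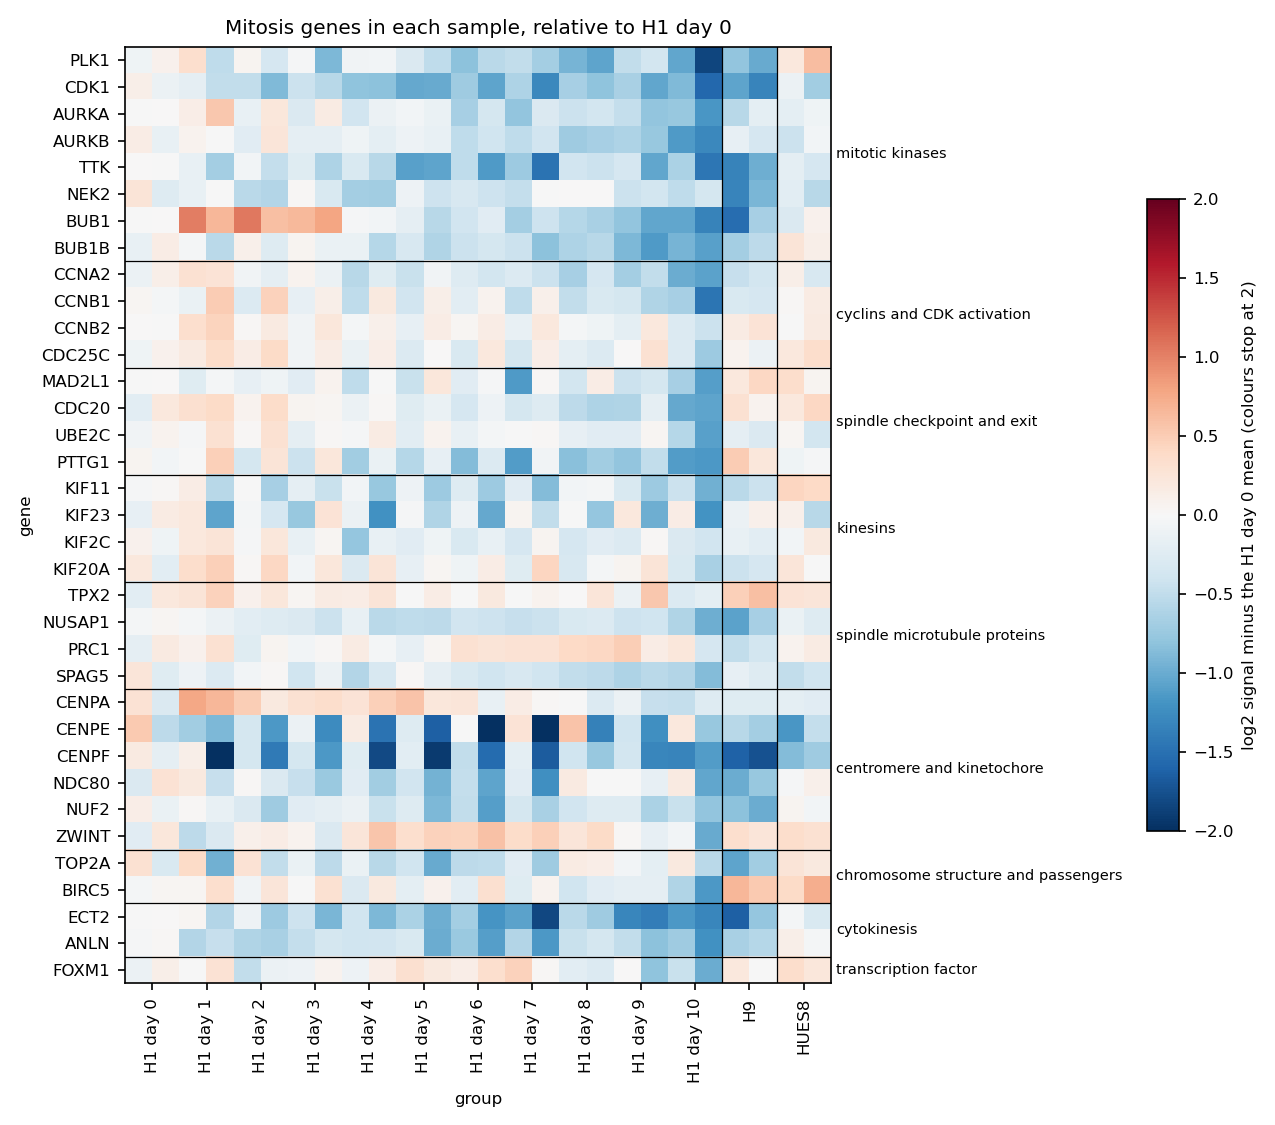
Log2 signal of each of the 35 genes (vertical axis, grouped by role) in each sample (horizontal axis, H1 by day, then H9 and HUES8, both samples of each group side by side) as the difference from the gene's mean over the 2 H1 day 0 samples, with the colour scale in log2 units ending at -2 and 2. Colours turn towards lower values from left to right over the H1 days in most rows, and the second day 10 sample is the lowest H1 sample of 21 genes. No share of all genes was computed for that count.

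Of the 8 mitotic kinases, 7 fell over the course by slope, against 21.4% of all genes, and the same 7 were lower on day 10, against 12.5%. PLK1, the polo-like kinase that acts from mitotic entry to cytokinesis, had signals of 578 and 647 on day 0, 772 and 432 on day 1, 632 and 486 on day 2, 600.0 and 326 on day 3 and 584 and 587 on day 4. Its later signals were 499 and 428 on day 5, 345 and 419 on day 6, 436 and 383 on day 7, 322 and 294 on day 8, 435 and 474 on day 9 and 298 and 171 on day 10. All samples from day 5 onwards were below both day 0 samples, and the second sample of day 10 was the lowest of the course. PLK1 fell by 0.11 ± 0.02 log2 per day (SE, adjusted p = 0.000214), and its day 10 level fell by 1.44 ± 0.31 on the log2 scale against day 0 (SE, adjusted p = 0.00155). Without that second day 10 sample, in which it was not present, the fall was -1.04 (adjusted p = 0.0456).

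CDK1, the kinase that drives entry into mitosis, was the first member to fall and stay down. Its signals were 5665 and 4772 on day 0, 4576 and 3683 on day 1, 3709.9 and 2821 on day 2, 3853 and 3527 on day 3 and 2985 and 2932 on day 4. They were 2566 and 2585 on day 5, 3184 and 2503 on day 6, 3376 and 2127 on day 7, 3268 and 2962 on day 8, 3311 and 2519 on day 9 and 2813 and 1753 on day 10. Every treated sample lay below both day 0 samples, and the samples of days 4 to 10 ranged from 1753 to 3376. CDK1 passed the test against day 0 on day 4 with -0.81 ± 0.25 (adjusted p = 0.0499) and on each later day, ending at -1.23 ± 0.25 (adjusted p = 0.00104) on day 10. The day 4 call sits at the threshold and was lost without the first day 0 sample, without the first day 4 sample and under 6 other settings. Of 2 further CDK1 probe sets, 1 had a slope of -0.08 (adjusted p = 9.15e-05) and the other one of -0.04 (adjusted p = 0.192).

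BUB1, a checkpoint kinase at the kinetochore, had the steepest slope and a course of its own. Its signals were 1255 and 1265 on day 0, 2551 and 1998 on day 1, 2617 and 1909.7 on day 2, 1977 and 2186 on day 3 and 1244 and 1208 on day 4. They were 1118 and 856 on day 5, 971 and 1075 on day 6, 783 and 950.1 on day 7, 847 and 802 on day 8, 725 and 616 on day 9 and 614 and 498 on day 10. All 6 samples of days 1 to 3 lay above both day 0 samples, and all samples from day 4 onwards lay below them, those of day 4 only just. The early excess was 0.84 ± 0.24 (adjusted p = 0.108) on day 1, 0.83 ± 0.24 (adjusted p = 0.0607) on day 2 and 0.72 ± 0.24 (adjusted p = 0.0999) on day 3, and none of these passed the test. In fits of only the groups compared BUB1 was higher on day 2 (adjusted p = 0.036) and on day 3 (adjusted p = 0.0264). From that early level BUB1 fell by 1.61 ± 0.13 between days 1 to 3 and days 7 to 10 (adjusted p = 6.29e-09), and its slope was -0.18 ± 0.02 (adjusted p = 1.59e-08), both the largest falls among the members. The 3 further BUB1 probe sets had slopes of -0.22 (adjusted p = 1.85e-10), -0.12 (adjusted p = 0.338) and -0.05 (adjusted p = 0.441), in the fit of every probe set.

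AURKA, the Aurora kinase of centrosomes and spindle poles, had signals of 2759 and 2819 on day 0, 3046 and 4072 on day 1, 2506 and 3274 on day 2, 2275 and 3133 on day 3 and 2136 and 2577 on day 4. Its later signals were 2676 and 2544 on day 5, 1769 and 2179 on day 6, 1617 and 2284 on day 7, 2062 and 2171 on day 8, 1999.9 and 1614 on day 9 and 1646 and 1244 on day 10. All samples from day 4 onwards were below both day 0 samples, and the first sample was the lower one on 6 of days 1 to 7. AURKA fell by 0.96 ± 0.22 (adjusted p = 0.00267) on day 10, with a slope of -0.10 ± 0.01 (adjusted p = 1.08e-05). AURKB, the Aurora kinase of the chromosomal passenger complex, which corrects faulty attachments, had signals of 1047 and 854 on day 0, 996 and 945 on day 1, 807 and 1114 on day 2, 831 and 838 on day 3 and 893 and 829 on day 4. It then had 884 and 852 on day 5, 662 and 721 on day 6, 662 and 728 on day 7, 578 and 596 on day 8, 618 and 561 on day 9 and 431 and 389 on day 10. AURKB ranged from 807 to 1114 on days 1 to 5, around its day 0 level, and was below both day 0 samples in every sample from day 6. It fell by 1.21 ± 0.18 (adjusted p = 6.1e-05) on day 10, the smallest adjusted p among the members in that comparison, and had a slope of -0.11 ± 0.01 (adjusted p = 5.86e-07).

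TTK, the checkpoint kinase also known as MPS1, had signals of 1346 and 1322 on day 0, 1206 and 829.6 on day 1, 1287 and 955 on day 2, 1126 and 866 on day 3 and 1077 and 909 on day 4. It then had 631 and 645 on day 5, 937 and 611 on day 6, 807 and 478 on day 7, 1028 and 988 on day 8, 1056 and 651 on day 9 and 858 and 490.3 on day 10. Every treated sample was below day 0, the fall on day 5 passed the test with -1.06 ± 0.30 (adjusted p = 0.0275), and that on day 8 did not. TTK was at -1.04 ± 0.30 (adjusted p = 0.0153) on day 10. BUB1B, the checkpoint protein BUBR1, fell by 1.00 ± 0.20 (adjusted p = 0.000937) on day 10. NEK2, a centrosome kinase, was the only one of the 8 without a slope past the test, at -0.01 ± 0.01 (adjusted p = 0.465). Its signals were 825 and 577 on day 0, 620.3 and 683 on day 1, 477 and 458 on day 2, 702 and 558 on day 3 and 429 and 427 on day 4. It then had 644 and 520.5 on day 5, 551 and 516 on day 6, 498 and 688 on day 7, 697 and 694 on day 8, 511 and 536 on day 9 and 484 and 539.6 on day 10. The day 0 samples of NEK2 were far apart, and the lower of them lay within the range of the treated samples.

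Cyclins and the activating phosphatase had falling slopes in 4 of 4 cases, against 21.4% of all genes. CCNB1, cyclin B1, had signals of 4064 and 3875 on day 0, 3635 and 5627 on day 1, 3294 and 5493 on day 2, 3559.6 and 4305 on day 3 and 2784 and 4529 on day 4. It then had 3031 and 4295 on day 5, 3422 and 4178 on day 6, 2796 and 4244 on day 7, 2808 and 3195 on day 8, 3110.3 and 2602 on day 9 and 2506 and 1438 on day 10. The second sample was above the first on each of days 1 to 7, while on day 10 the second sample was the lower one. CCNB1 fell by 1.06 ± 0.30 (adjusted p = 0.0115) on day 10 and had a slope of -0.09 ± 0.02 (adjusted p = 0.0011). A further CCNB1 probe set, on the second array, had a slope of -0.05 (adjusted p = 0.0592) and a day 10 difference of -0.64 (adjusted p = 0.156). CCNA2, cyclin A2, fell by 1.03 ± 0.18 (adjusted p = 0.000251) on day 10, and a further CCNA2 probe set was at -0.54 (adjusted p = 0.0869). CCNB2, cyclin B2, and CDC25C, the phosphatase that activates CDK1, had slopes of -0.03 ± 0.01 (adjusted p = 0.0168) and -0.04 ± 0.02 (adjusted p = 0.023) and were not called on day 10.

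Genes of the spindle checkpoint and of mitotic exit fell in 4 of 4 cases by slope, against 21.4% of all genes, and in 4 of 4 on day 10, against 12.5%. Without the second day 10 sample, CDC20 was the only one of them lower on day 10. CDC20, the activator of the anaphase-promoting complex, had signals of 1822 and 2446 on day 0, 2632 and 2762 on day 1, 2208 and 2708 on day 2, 2188 and 2162 on day 3 and 1945 and 2151 on day 4. It then had 1793 and 1916 on day 5, 1666 and 1976 on day 6, 1659 and 1759.7 on day 7, 1473 and 1369 on day 8, 1398 and 1864 on day 9 and 1044 and 1020.0 on day 10. Both day 1 samples were above day 0 and both day 10 samples were well below every other H1 sample. CDC20 fell by 0.78 ± 0.09 (adjusted p = 1.48e-06) from days 1 to 3 to days 7 to 10 and by 1.03 ± 0.17 (adjusted p = 0.000179) on day 10. PTTG1, securin, which holds separase inactive until anaphase, fell by 1.14 ± 0.30 (adjusted p = 0.00887) on day 10. PTTG1 has close relatives in the genome and is read only by a probe set that may detect several transcripts, so its values are uncertain. UBE2C, the ubiquitin-conjugating enzyme of the anaphase-promoting complex, fell by 0.83 ± 0.19 (adjusted p = 0.00254), and MAD2L1, the checkpoint protein MAD2, fell by 0.88 ± 0.29 (adjusted p = 0.0291).

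**Figure D2:**
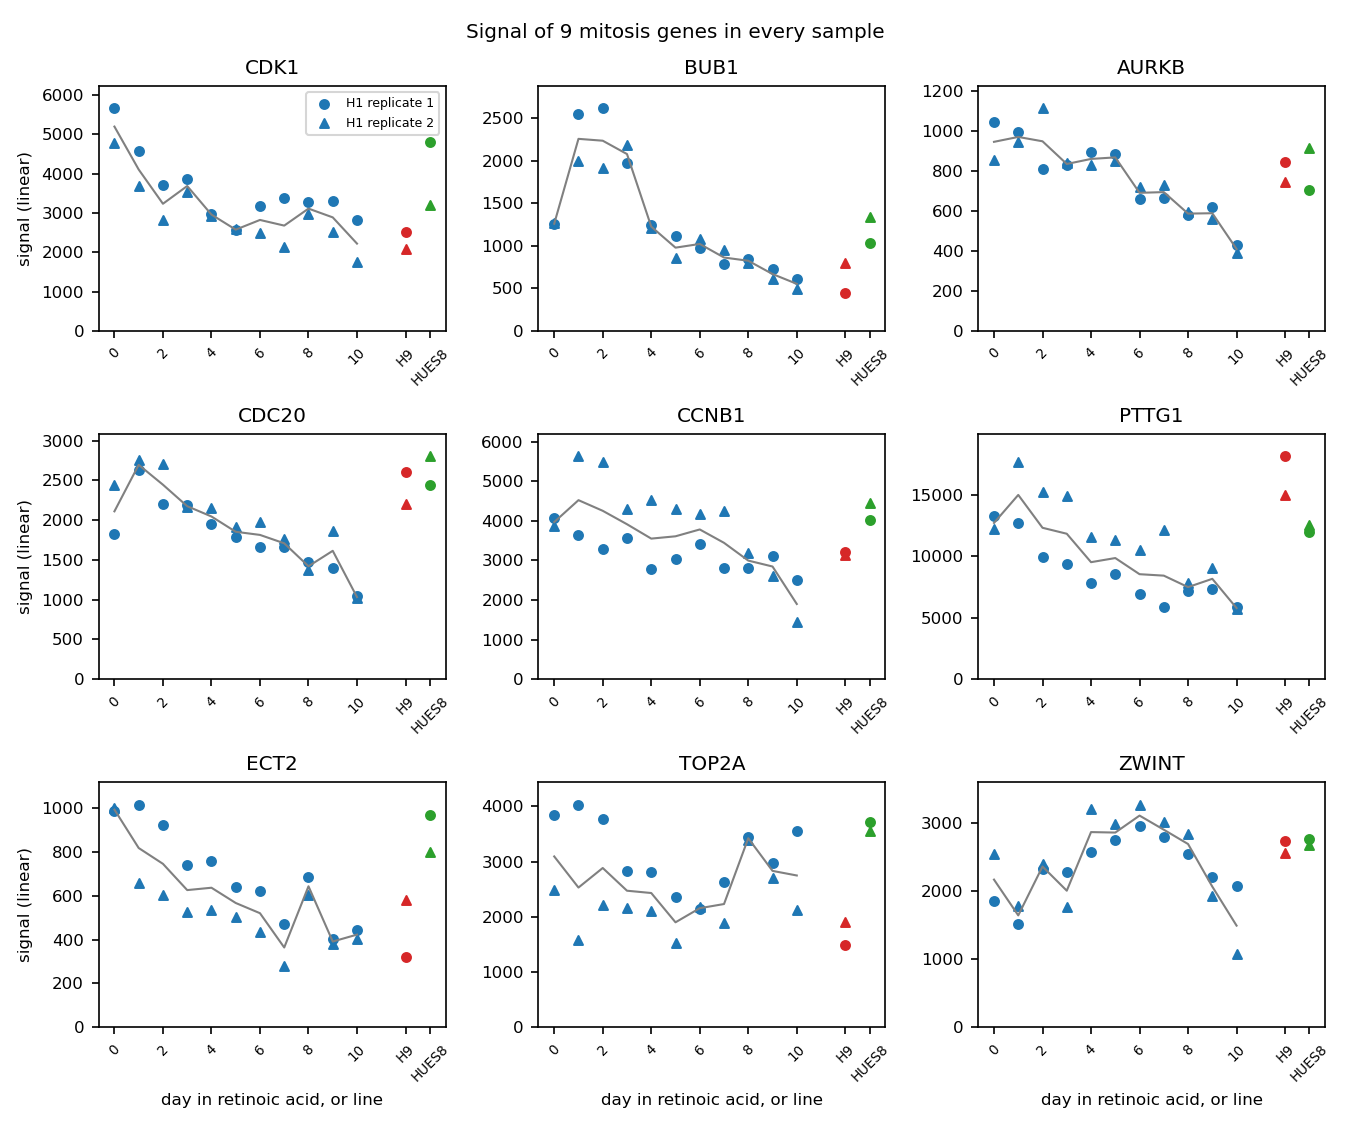
MAS5 signal (vertical axis, linear from 0) by day (horizontal axis) for 9 genes in H1, with H9 and HUES8 at the right. Points are single samples and lines join the geometric means of both samples of each day. BUB1 stands above its day 0 level on days 1 to 3 before it falls, CDK1 is lower from day 1, and TOP2A and ZWINT have no steady fall.

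Of the 4 kinesins, 2 fell by slope, against 21.4% of all genes: KIF2C, which depolymerises microtubules, and KIF20A, which acts in cytokinesis, had slopes of -0.04 ± 0.01 (adjusted p = 0.0198) and -0.04 ± 0.02 (adjusted p = 0.0385). None of the 4 was called on day 10, against 12.5% of all genes. KIF11, the motor that separates the spindle poles, had a day 10 difference of -0.70 ± 0.31 (adjusted p = 0.112), and KIF23, a motor of the central spindle, one of -0.53 ± 0.55 (adjusted p = 0.54). Of 4 spindle proteins 2 fell by slope and on day 10, NUSAP1 and SPAG5. SPAG5, also called astrin, fell by 0.73 ± 0.17 (adjusted p = 0.00397) on day 10. NUSAP1, which bundles spindle microtubules near chromosomes, had signals of 2910.4 and 3076 on day 0, 2906 and 2758 on day 1, 2588 and 2504 on day 2, 2451 and 2219.6 on day 3 and 2704 and 2069 on day 4. It then had 2096 and 2078 on day 5, 2295 and 2248 on day 6, 2179.7 and 2227 on day 7, 2419 and 2480.0 on day 8, 2249 and 2259 on day 9 and 1969 and 1519.6 on day 10. All samples from day 1 lay below both day 0 samples, with the first day 1 sample only just below. NUSAP1 fell by 0.79 ± 0.16 (adjusted p = 0.00111) on day 10. TPX2, which activates AURKA on the spindle, was at -0.24 ± 0.19 (adjusted p = 0.392).

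PRC1, the bundler of the central spindle, had the largest positive difference between the late and early days. Its signals were 1482 and 1887 on day 0, 1784 and 2064 on day 1, 1419 and 1728 on day 2, 1607 and 1704 on day 3 and 1876 and 1627 on day 4. It then had 1494 and 1725 on day 5, 2075 and 1996 on day 6, 2043 and 2034 on day 7, 2205 and 2223 on day 8, 2355 and 1850.0 on day 9 and 1955 and 1329.8 on day 10. Days 6 to 9 ran above day 0 in all but 1 sample, and the day 10 samples fell on either side. Days 7 to 10 exceeded days 1 to 3 by 0.21 ± 0.10 (adjusted p = 0.103), which passed the test only with centring on control probe sets (0.28, adjusted p = 0.0341) among the scalings run and, with 1 sample left out, without the second day 10 sample (0.28, adjusted p = 0.0243), and day 10 differed from day 0 by -0.05 ± 0.19 (adjusted p = 0.874).

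Of 6 centromere and kinetochore genes 2 fell by slope, against 21.4% of all genes, and 0 were called on day 10, against 12.5%, counts near the background. CENPA, the histone variant of centromeres, had a slope of -0.07 ± 0.01 (adjusted p = 0.000322), and NUF2, a microtubule-binding subunit of the kinetochore, one of -0.05 ± 0.02 (adjusted p = 0.0383). CENPE, a kinesin that moves chromosomes to the spindle's middle, and NDC80, the partner of NUF2, had day 10 differences of -0.28 ± 1.00 (adjusted p = 0.878) and -0.43 ± 0.37 (adjusted p = 0.439). CENPF, a kinetochore protein, had signals of 2481 and 1935 on day 0, 2369.9 and 532 on day 1, 1716 and 824 on day 2, 1716 and 986 on day 3 and 1843 and 626 on day 4. It then had 1896 and 581 on day 5, 1561 and 753 on day 6, 1914 and 694 on day 7, 1667 and 1290.4 on day 8, 1706 and 892 on day 9 and 882 and 1012 on day 10. The first sample was above the second on every day from 1 to 7, so that its day 10 difference of -1.21 ± 0.65 (adjusted p = 0.191) was as large as that of called members and had a wide error. A further CENPF probe set differed by 0.07 on day 10. ZWINT, which anchors the checkpoint proteins at the kinetochore, had signals of 1848 and 2541 on day 0, 1514 and 1781 on day 1, 2317 and 2401 on day 2, 2276 and 1766 on day 3 and 2566 and 3199 on day 4. It then had 2741 and 2978 on day 5, 2954 and 3266 on day 6, 2792 and 3011 on day 7, 2549 and 2837 on day 8, 2211 and 1928 on day 9 and 2077 and 1072 on day 10. Both samples of each of days 4 to 8 were above both day 0 samples, and the second day 10 sample was the lowest of the course. ZWINT varied among the days by the F test (adjusted p = 0.00878), had a slope of 0.00 ± 0.02 (adjusted p = 0.881) and was at -0.54 ± 0.23 (adjusted p = 0.0932) on day 10.

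TOP2A, the topoisomerase that untangles chromosomes, had signals of 3838 and 2493 on day 0, 4029.9 and 1588 on day 1, 3769 and 2206 on day 2, 2829.9 and 2159.8 on day 3 and 2816 and 2100.1 on day 4. It then had 2358 and 1531 on day 5, 2144 and 2169 on day 6, 2639 and 1887 on day 7, 3449 and 3398 on day 8, 2975 and 2695 on day 9 and 3549.9 and 2128 on day 10. The day 1 samples alone spanned nearly the whole range of the course, and day 10 overlapped day 0. TOP2A had a slope of 0.00 ± 0.02 (adjusted p = 0.985) and a day 10 difference of -0.17 ± 0.35 (adjusted p = 0.778). Further TOP2A probe sets differed on day 10 by -0.66 (adjusted p = 0.105) and 0.38 (adjusted p = 0.85). BIRC5, survivin, a partner of AURKB in the passenger complex, fell by 0.87 ± 0.23 (adjusted p = 0.00728) on day 10. Further BIRC5 probe sets were at -0.79 (adjusted p = 0.0387) and -0.36 (adjusted p = 0.53) on day 10, in the fit of every probe set.

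Both cytokinesis genes fell by slope, against 21.4% of all genes, and on day 10, against 12.5%, and neither passed on day 10 without the second day 10 sample. ECT2, the exchange factor that switches on RhoA for the cleavage furrow, had signals of 986 and 999 on day 0, 1015 and 658 on day 1, 924 and 601 on day 2, 741 and 528 on day 3 and 757 and 535 on day 4. It then had 639 and 503 on day 5, 621 and 436 on day 6, 473 and 279.8 on day 7, 685 and 604 on day 8, 402 and 380.1 on day 9 and 446 and 401 on day 10. All samples but the first of day 1 were below both day 0 samples, and the lowest was the second sample of day 7. ECT2 fell by 1.45 ± 0.32 (adjusted p = 0.00288) on day 7 and by 1.23 ± 0.32 (adjusted p = 0.00668) on day 10, but was not called on day 8. ANLN, anillin, a scaffold of the contractile ring, fell by 0.96 ± 0.24 (adjusted p = 0.00446) on day 10. FOXM1, the transcription factor that activates many of these genes, had signals of 772 and 918 on day 0, 838 and 1032 on day 1, 597 and 776 on day 2, 783 and 885 on day 3 and 787 and 924 on day 4. It then had 1055 and 964 on day 5, 925 and 1062 on day 6, 1156 and 854 on day 7, 725 and 698 on day 8, 848 and 483 on day 9 and 618 and 423 on day 10. FOXM1 ranged from 597 to 1156 on days 1 to 7, around its day 0 level, and was below both day 0 samples on days 8 and 10. It fell by 0.72 ± 0.25 (adjusted p = 0.036) on day 10, and its slope was -0.04 ± 0.02 (adjusted p = 0.0363). FOXM1 and CENPA are read only by probe sets that may cross-hybridise.

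**Figure D3:**
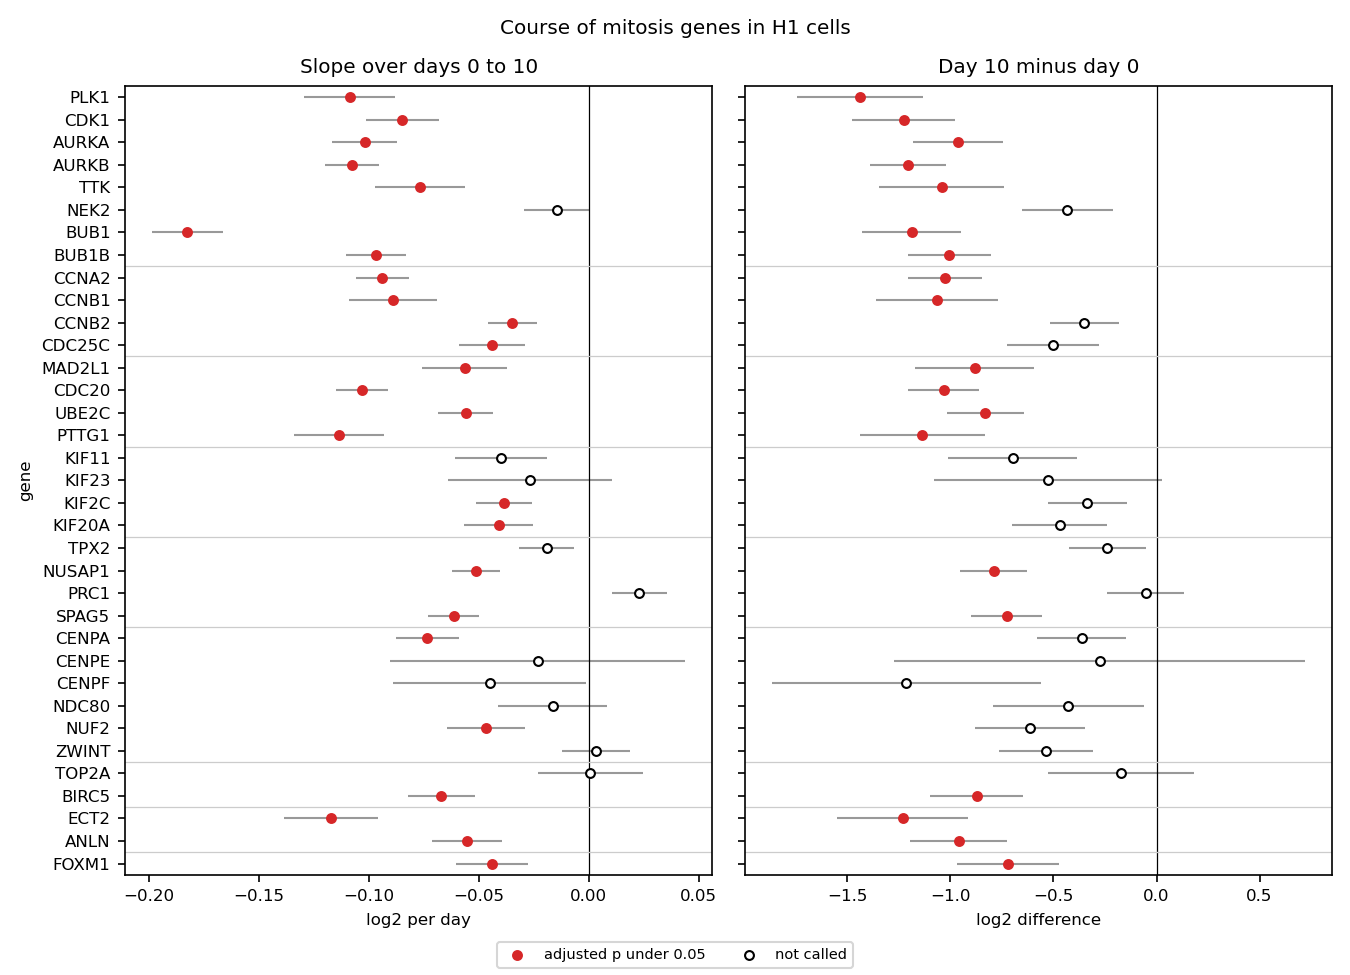
Slope over days 0 to 10 in log2 per day (left) and log2 difference of day 10 from day 0 (right) for each gene (vertical axis, by role), with bars for 1 SE of the fit and filled or open points for genes past or short of an adjusted p of 0.05. In this fit of both day 10 samples the day 10 values of all 35 genes lie below 0, and BUB1 has the lowest slope.

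Day by day against day 0, the number of members called lower was 0 on days 1, 2 and 3, against 0.262%, 1.5% and 1.84% of all genes. At an unadjusted p under 0.05 there were 4, 4 and 3 of 35 members on these days, in either direction. Of all 12201 genes there were 1290, 1924 and 1886, so the members did not stand out. CDK1 alone was lower on day 4, 1 of 35, against 2.86% of all genes. The count was 3 on day 5 (background 3.93%), 3 on day 6 (5.66%), 5 on day 7 (6.43%), 4 on day 8 (6.69%) and 8 on day 9 (9.06%). On day 10 it was 19 of 35, against 12.5% of all genes. Leaving out 1 sample brought the count to between 0 and 1 on days 4 and 5, 0 and 4 on day 6, 1 and 5 on day 7, 0 and 2 on day 8 and 3 and 6 on day 9. Among the omissions that gave the lowest counts were the first day 0 sample on days 4 to 7, the first day 8 sample on day 8 and the second day 9 sample on day 9. On day 4 the omission of the first day 4 sample gave the same count. No member was higher on any of these days, against 0.926%, 2.29%, 3.51%, 4.93%, 6.34%, 8.07%, 9.01%, 9.6%, 11.4% and 13% of all genes on days 1 to 10. The median difference of the members was -0.10 on day 3, -0.44 on day 7, -0.41 on day 9 and -0.79 on day 10, when the median of all genes was 0.00.

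The first day from which a member was called lower on that and every later day was day 4 for CDK1, day 8 for AURKB and day 9 for AURKA, BUB1, BUB1B, CCNA2, SPAG5 and ECT2. It was day 10 for 11 members, and the other 16 had no such day. Because day 10 was the last day, its call alone sufficed for those 11. TTK and NUSAP1 were called on day 5, NUF2 and ANLN on day 6, BUB1B and ECT2 on day 7 and PLK1 and CDC20 on day 8 without staying called on each day that followed. The highest H1 sample was the first day 1 sample for 6 members and the second for 8, and the first day 0 sample for 6 and the second for 4. These counts have no share of all genes beside them, as none was computed. No member differed between any day and the day before, from day 2 onwards. Of all genes 0.107% were lower and 0.254% higher on day 2 than on day 1, 0.0902% were higher on day 3, 0.0246% on day 4 and 0.0082% on day 5, 0.0082% were lower on day 8, and the remaining shares were 0. The step from day 9 to day 10 was the widest, with 32 of 35 members lower and a median of -0.36, beside -0.02 over all genes. In that step 11 members and 564 of all genes had an unadjusted p under 0.05, and 0 of all genes passed after adjustment.

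The day 10 count rested in large part on 1 sample. The second day 10 sample was the lowest H1 sample of 21 members. The first was the lowest of 2, and no share of all genes was computed for either count. Without the second, the differences from day 0 ran from -1.31 in CENPF to 0.225 in PRC1. KIF23, NDC80, TOP2A and CENPE then also lay above day 0, by 0.15 to 0.21. A day 10 mean from 1 sample is less certain for every gene, so fewer calls without it are no result about the members alone. The slope draws on all 22 H1 samples rather than on those of days 0 and 10. With day 10 left out altogether, an alternative added after the data were seen, 16 members fell by slope and 2 rose, PRC1 and ZWINT, where 17.3% of all genes fell and 20.4% rose. Days 7 to 9 were then lower than days 1 to 3 in 11 members and higher in PRC1 and ZWINT, against 15.3% and 18.5% of all genes. Integrity of the RNA was followed by the 3′ to 5′ ratio of the ACTB control probe sets, which was 1.3 and 1.27 in the day 0 samples on the first array, 1.34 to 1.65 on days 1 to 9 and 1.89 and 1.45 on day 10. With this ratio as a covariate 20 members fell by slope, against 14.4% of all genes, and 16 were lower on day 10, against 7.17%.

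**Figure D4:**
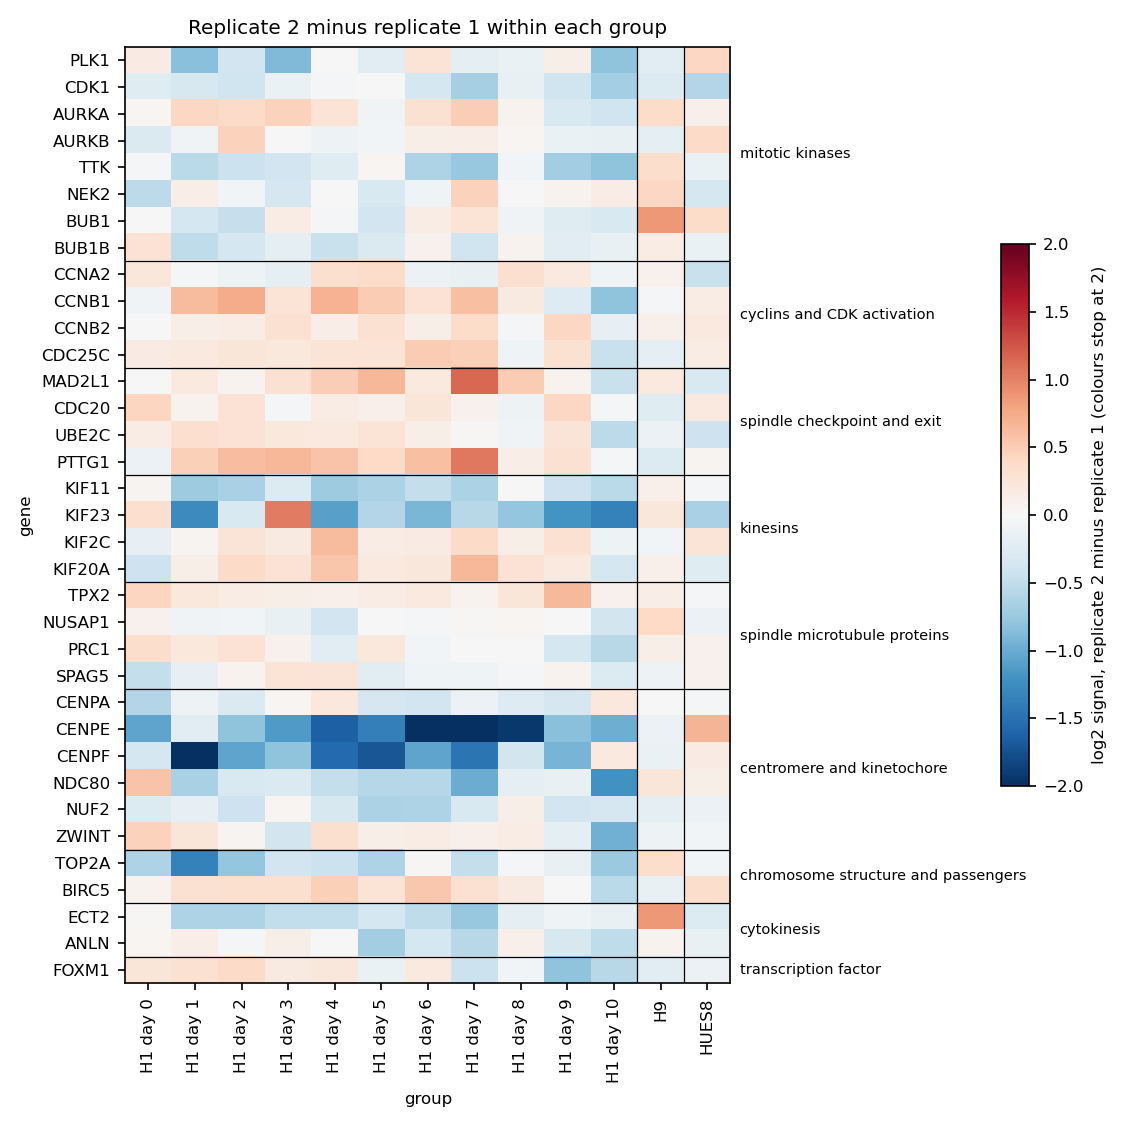
Log2 signal of the second minus the first sample of each group (colour, scale ending at -2 and 2) for each gene (vertical axis, by role) and group (horizontal axis). On each of days 1 to 7 the second sample is lower for the same 5 genes and higher for the same 10.

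Replicates of days 1 to 7 differed in a repeated way. The second sample was lower on all 7 days for 5 members, KIF11, CENPE, CENPF, NDC80 and ECT2, against 8.94% of all genes. It was higher on all 7 days for 10 members, CCNB1, CCNB2, CDC25C, MAD2L1, UBE2C, PTTG1, KIF2C, KIF20A, TPX2 and BIRC5, against 11.3% of all genes. Across members and groups the median absolute difference between replicates was 0.26 on the log2 scale, beside a median SD of 0.31 between the H1 day means. With only the first samples of days 1 to 7 the median slope of the members was -0.057, beside -0.001 over all genes. With only the second it was -0.060, beside 0.002. What the samples of equal number share on these days is not given in the sources used here.

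Several probe sets were tested for 16 members, 56 probe sets in all over the 35. By slope 36 of the 56 fell and 0 rose, against 18.7% of all 21528 tested probe sets that fell. All tested probe sets of a gene fell in 8 of the 16 members and had the same sign in 13. On day 10, 27 of 56 were lower, against 10.4% of all probe sets. In H9 against H1 day 0, 10 of 56 were lower, against 2.53% of all probe sets. All tested probe sets of a gene were lower there in 1 of the 16 members. The slopes of NEK2, CENPF and TOP2A differed in sign between probe sets, none of them past the test. Of genes with 1 sign, KIF2C was lower on day 10 by a further probe set (-0.76, adjusted p = 0.0211) and at -0.34 ± 0.19 (adjusted p = 0.221) by the probe set used for the gene.

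Between the undifferentiated lines, H9 was lower than H1 day 0 in 6 of 35 members, against 2.49% of all genes, and higher in 0, against 2.15%. These were ECT2, CDK1, TTK, NEK2, BUB1 and NUSAP1, of which 4 are kinases. ECT2 signals were 986 and 999 in H1, 319 and 579 in H9 and 966 and 799.7 in HUES8, and the H9 difference was -1.21 ± 0.32 (adjusted p = 0.0325). CDK1 was at 2508 and 2086 in H9 and 4796 and 3199 in HUES8, with an H9 difference of -1.18 ± 0.25 (adjusted p = 0.00923). Both H9 samples of both genes lay below all samples of the other untreated lines.

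NEK2 was at 276 and 366 in H9 and 598 and 470.3 in HUES8, with an H9 difference of -1.12 ± 0.22 (adjusted p = 0.00592). NUSAP1 was at 1432 and 1894 in H9 and 2718 and 2514 in HUES8, with an H9 difference of -0.86 ± 0.16 (adjusted p = 0.00414). TTK was at 529.6 and 679 in H9 and 1162 and 1062 in HUES8, with an H9 difference of -1.15 ± 0.30 (adjusted p = 0.0328). The H9 samples of these genes were again the lowest of the untreated lines, without overlap. These genes, ECT2 and CDK1 were called lower than H1 from the same samples. Their lack of overlap with H1 is therefore no further support, and no share of all genes was computed for it. BUB1 was at 440.1 and 799 in H9 and 1033 and 1338 in HUES8, with an H9 difference of -1.09 ± 0.24 (adjusted p = 0.0132). CENPF had the widest difference, -1.68 ± 0.65 (adjusted p = 0.152) with signals of 714 and 653 in H9 and 1198 and 1345 in HUES8, and did not pass the test.

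With arrays centred on control probe sets the count was again 6 lower and 0 higher, against 3.93% and 0.729% of all genes. In a fit of only the 2 lines it was 13 lower and 2 higher, TPX2 and BIRC5, against 6.46% and 6.65%. BIRC5, TPX2 and PTTG1 were at 0.59 ± 0.23, 0.54 ± 0.19 and 0.37 ± 0.30, and for BIRC5 a further probe set had the opposite sign, -0.59. TOP2A was lower in H9 by a further probe set (-1.19, adjusted p = 0.0198) and at -0.87 ± 0.35 (adjusted p = 0.171) by the probe set used, with signals of 1495 and 1903 in H9 and 3709 and 3558 in HUES8. The H9 count depends on single samples: it was 1 without the first H9 sample, with CDK1 left, 1 without the first H1 day 0 sample, with NUSAP1 left, and 3 without the second H1 day 0 sample.

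HUES8 differed from H1 day 0 in 0 of 35 members by limma, against 0.115% of all genes lower and 0.082% higher. An unadjusted p under 0.05 was found for 2 of 35 members and for 1005 of all 12201 genes. The median difference was 0.04. HUES8 was higher than H9 in 4 members, against 1.65% of all genes, and lower in 0, against 0.967%. PLK1 signals were 353 and 303 in H9 and 709 and 942 in HUES8, a difference of 1.32 ± 0.31 (adjusted p = 0.0212). BUB1 differed by 0.99 ± 0.24 (adjusted p = 0.0293), BUB1B by 0.79 ± 0.20 (adjusted p = 0.0378) and NUSAP1 by 0.67 ± 0.16 (adjusted p = 0.0288). This count was 0 without the second HUES8 sample or without the first H9 sample and 1 without the first HUES8 sample. With 2 samples per line, a line effect and the state of single cultures cannot be told apart.

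**Figure D5:**
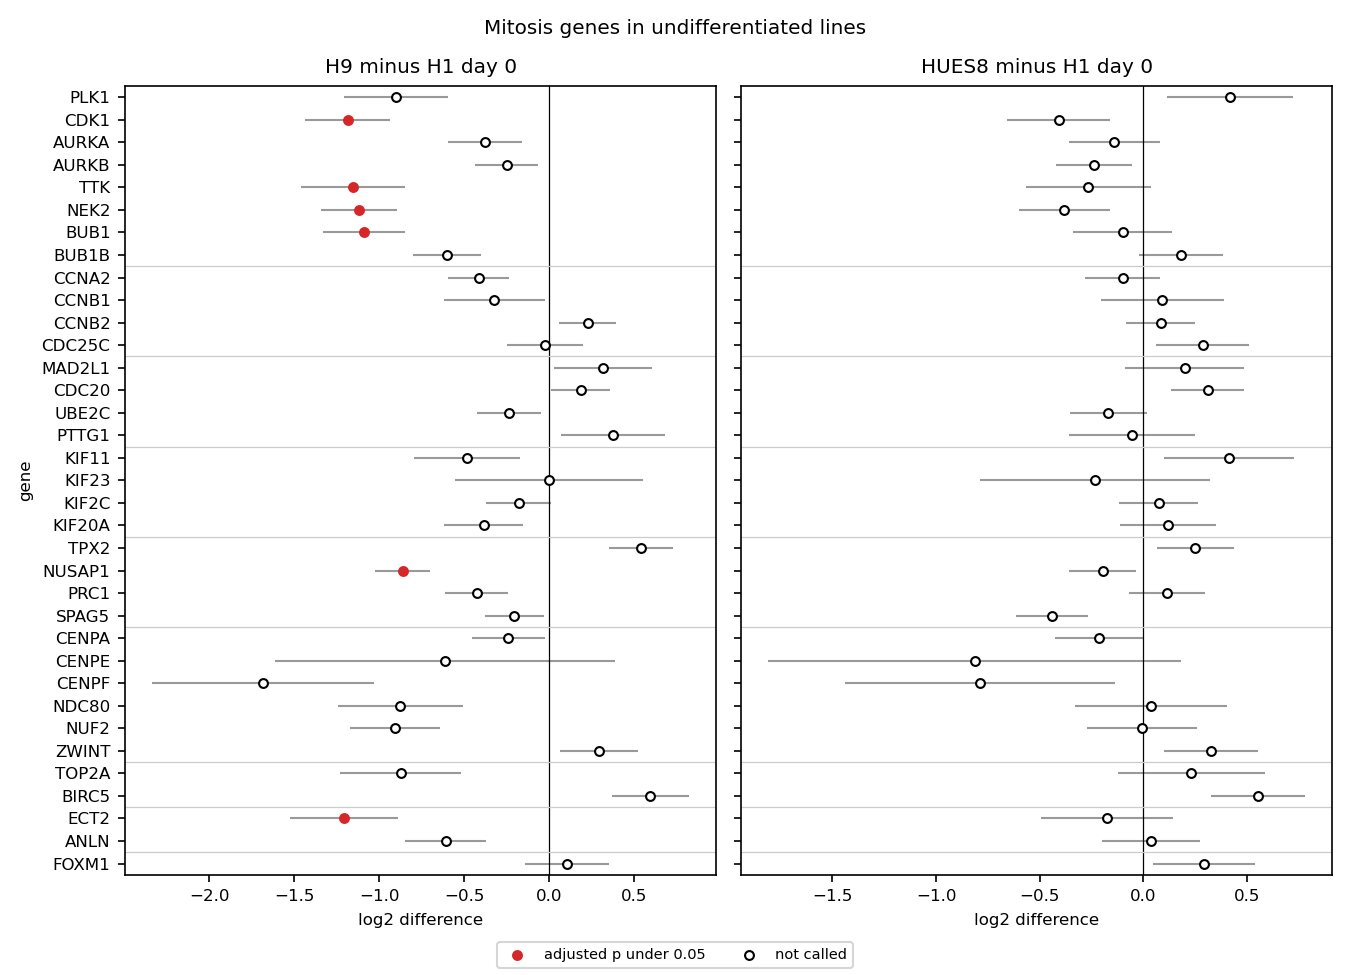
Log2 difference of H9 from H1 day 0 (left) and of HUES8 from H1 day 0 (right) for each gene (vertical axis, by role), with bars for 1 SE of the fit and filled or open points for genes past or short of an adjusted p of 0.05. In H9, 6 genes pass on the lower side, and in HUES8 none passes.

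H1 on day 10 was lower than HUES8 in 20 of 35 members, against 14.4% of all genes, and higher in 0, against 14.1%. PLK1 led with -1.86 ± 0.31 (adjusted p = 0.000137), followed by BIRC5 with -1.43 ± 0.23 (adjusted p = 9.45e-05) and CDC20 with -1.34 ± 0.17 (adjusted p = 9.95e-06). Against H9, H1 on day 10 was lower in 13 members, against 17% of all genes, and higher in 1, NEK2, against 17.4%. PTTG1 was at -1.51 ± 0.30 (adjusted p = 7e-04), BIRC5 at -1.47 ± 0.23 (adjusted p = 5.12e-05) and CDC20 at -1.22 ± 0.17 (adjusted p = 2.25e-05). CDK1, ECT2 and BUB1, low in H9, differed between H1 day 10 and H9 by -0.04 ± 0.25, -0.02 ± 0.32 and -0.10 ± 0.24, and these comparisons share the H9 samples with those above. The ACTB ratio was 1.24 and 1.17 in H9 on the first array, beside 1.89 and 1.45 on day 10, and with it as a covariate the count against H9 was 4 lower and 0 higher, against 8.05% and 8.14% of all genes. With arrays centred on control probe sets it was 9 lower and 2 higher, against 10.3% and 25.2%. Without the second H1 day 10 sample the counts were 7 against HUES8 and 7 against H9. They were 12 without the first HUES8 sample and 9 without the first H9 sample.

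Other genes of the division cycle, taken from lists drawn up with earlier results of these data known, are given by day 10 against day 0, where 12.5% of all genes were lower and 13% higher. Of 29 further kinetochore and centromere genes 12 were lower and 0 higher, with a median of -0.67. ZWILCH, a subunit of the RZZ checkpoint complex, went from a mean signal of 7710 to 2085 (-1.89, adjusted p = 2.09e-07), and SKA3, of the SKA complex that couples kinetochores to microtubules, was at -1.72. Of 28 replication genes 16 were lower and 0 higher, with a median of -0.73, led by MCM5, a helicase subunit, at -1.70. The kinetochore members of the main list, with 0 of 6 called, and this wider kinetochore list were not tested against each other.

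Of 18 condensin and cohesin genes 4 were lower, with NCAPG2 at -1.69 and NCAPH at -1.67, both condensin subunits. Of 14 genes of the anaphase-promoting complex 2 were lower and 1 higher: UBE2S, the enzyme that extends its ubiquitin chains, went from 4336 to 918 (-2.24, adjusted p = 2.2e-06), ANAPC7 was at -0.88 and ANAPC13 at 0.70. Of 25 other mitotic regulators 10 were lower and 2 higher, among them MASTL, the Greatwall kinase, at -1.60 and PLK4, the kinase of centriole duplication, at -1.27. Of 10 other kinesins 1 was lower, KIF2A, at -0.78. Of 18 DREAM and E2F genes 2 were lower, MYBL2, the B-MYB factor, at -1.49 and E2F7, a repressor, at -0.89, and 1 was higher, TFDP2 at 0.78.

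Of 8 genes that arrest the cell cycle 6 were higher and 0 lower. CDKN2B, the inhibitor p15 of cyclin D kinases, was present in neither day 0 sample and went from a mean signal of 17 to 4460. GAS1, a growth arrest gene, was present in neither day 0 sample and went from 44.9 to 2483. CDKN2A, which encodes the inhibitor p16, was also not present in either day 0 sample and was at 123 and then at 757. Mean signals here are geometric means of both samples, and no fold is given for genes not present on day 0.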

How the data were processed

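Per the submitters' processing notes the authors made the deposited signals with MAS5, for which no version is given. Each array's signals are intensities on a linear scale, brought by the authors to a common trimmed mean, and come with a deposited detection p-value per probe set. A further 52 deposited columns of detection calls were not used. RNA was extracted with Trizol and labelled with biotin, per the labels' protocols. Probe sets were named from the platform's annotation, with symbols updated through RefSeq, and 34491 probe sets had 1 gene, 1597 several and 8704 none.

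Each gene was read by its brightest probe set (highest mean log2 signal) among those present on at least 2 of 26 arrays, with names ending in _x_at taken last. The 2 chips were fitted apart with limma 3.58.1 in R 4.3.3, with 1 mean per group over 13 groups of 2, an intensity trend, 13 residual degrees of freedom and Benjamini-Hochberg adjustment over the 12201 genes of both chips, called at an adjusted p under 0.05. Errors are standard errors of that fit, and values with a ± sign are log2 differences, or log2 per day for slopes. The number of arrays limits the precision. Replicates of a group correlated across genes at 0.911 to 0.96. Nothing says that cultures were independent beyond the label of biological replicates, so p-values measure the spread between these samples.

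The members and lists were chosen with earlier results of these data known. Values in every H1 sample are printed for the members with the largest falls, the largest rises, the earliest lasting fall and the largest line differences, and for CDK1, CCNB1, PLK1, AURKA, TOP2A and FOXM1. Other listed genes are named by the size of their day 10 change among called genes, up to 4 a list. Promoter sequences came from RefSeq, GRCh38.p14. The fit was tested on simulated data. Alternatives were no detection filter, the mean of a gene's probe sets, every probe set, quantile normalization, centring on control probe sets, no intensity trend, a pseudocount of 32, the replicate number as a block, the ACTB 3′ to 5′ ratio as a covariate, a fit of only the groups compared, and each sample left out in turn. Figures were drawn with matplotlib 3.10.9.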

Additional observations from a re-analysis of the deposited data

How the results depend on the processing

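No called direction of a member turned under the alternatives run. Of 1228 recomputed values of single members under other settings 122 no longer passed the test, and of 1046 with 1 sample left out 158 no longer did. The number of members with a slope was 25 and lay between 19 and 25 with 1 sample left out, 20 with the ACTB 3′ to 5′ ratio as a covariate and 18 without day 10, of which 16 were lower and 2 higher. The single call of day 4 was lost (0) without a detection filter, with the mean of a gene's probe sets, with every probe set tested, with quantile normalization, with control centring and with no intensity trend. Centring on control probe sets also gave 9 members by the F test, 7 on day 8 and 2 between HUES8 and H9. The median of all genes was then -0.20 on day 2, 0.10 on day 10 and -0.23 between H9 and H1, instead of -0.02, 0.00 and 0.01. With no intensity trend there were 11 by the F test, 1 on day 5 and 1 between HUES8 and H9. The ACTB covariate gave 11 by the F test, 6 on day 6, 1 between HUES8 and H9 and 4 between H1 day 10 and H9. Fits of only the groups compared gave 1 on day 2 and 1 on day 3, both BUB1 and higher, 5 on day 6, 3 on day 7, 8 on day 8, 15 between H9 and H1 (13 lower and 2 higher) and 8 between HUES8 and H9. Days 7 to 9 against days 1 to 3 gave 13, and the first samples alone of days 1 to 7 gave 9 by the F test, both added after the data were seen. The cause of these shifts was not tested.

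The replicate numbers share no stated batch, and for that reason the samples were not taken as paired in the main fit. Deviations of same-numbered samples correlated above 0.1 in 28 of 78 pairs of groups on the first chip and 24 of 78 on the second. On these chips 24 of 26 and 26 of 26 samples correlated best with a sample of their own number. Both samples of a group deviate by equal and opposite amounts, so they always give the same answer and are not independent. Whether same-numbered samples share a series was not tested. With the replicate block there were 2 calls on day 2 (BUB1 higher and CDK1 lower), 5 on day 6, 8 on day 8, 11 between H9 and H1 (10 lower and TPX2 higher) and 10 between HUES8 and H9.

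With 1 sample left out, counts ranged from 10 to 19 by the F test, from 17 to 22 for days 7 to 10 against days 1 to 3, from 0 to 1 on day 4 and on day 5, from 0 to 4 on day 6, from 1 to 5 on day 7, from 0 to 2 on day 8, from 3 to 6 on day 9 and from 8 to 20 on day 10. They ranged from 1 to 4 between H9 and H1, from 0 to 3 between HUES8 and H9, from 7 to 15 between H1 day 10 and H9 and from 7 to 21 between H1 day 10 and HUES8. The lone sample of such a group was assumed to vary like the others, and its group mean is less certain for every gene. No share of all genes is given for fits with 1 sample left out. Their counts, here and above, are therefore not set against a background. Signal near background limits CENPE, present on 18 of 26 arrays, and the day 10 value of PLK1.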
